A study of Rattus norvegicus with 10 samples.

Results

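The genes described here are the aryl hydrocarbon receptor Ahr, its repressors Ahrr and Tiparp, the cytochrome P450 genes Cyp1a1, Cyp1a2 and Cyp1b1, and the further target genes Nqo1 and Aldh3a1. Every probe set that the platform annotation assigned to 1 of these 8 gene symbols was taken, which gave 10 of the 29559 probe sets on the array, with 2 each for Ahr and Tiparp. The tissue was jejunum of male Sprague Dawley rats weighing 176 to 200 g, with no age given in the labels. The rats had been dosed orally for 5 days with vehicle, which was 0.2% hydroxypropylmethylcellulose (HPMC) at 10 ml/kg/day, or with A-998679. The daily doses of the compound were 30, 100 and 200 mg/kg. A-998679 is an experimental nicotinic receptor modulator, and the question was whether an oral course of it changes the expression of AhR target genes in the small intestine. Each array held RNA of 1 rat, and there were 3 arrays for vehicle, 2 for 30 mg/kg, 3 for 100 mg/kg and 2 for 200 mg/kg.

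AhR is a ligand-activated transcription factor that waits in the cytoplasm with chaperones, enters the nucleus when a planar aromatic ligand binds, and pairs there with ARNT. The pair binds a short core motif in DNA and raises the transcription of CYP1 family genes, whose enzymes oxidise many such ligands, and of AHRR and TIPARP, which in turn restrain the receptor. In the gut wall the pathway is met by ligands from food, from bacteria and from oral drugs before these reach the liver.

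The core motif was searched as GCGTG, which is CACGC on the opposite strand, in the 250 bases before the annotated start of each gene in RefSeq (build GRCr8). Of the 8 genes, 6 were matched to a promoter, and 4 of these 6 held the motif, beside 25.9% of all 33469 promoters of this length. Cyp1a1 and Aldh3a1 had no promoter entry and were not searched. Ahrr held 3 matches, a number reached or passed by 2.6% of promoters, Cyp1b1 held 2, and Tiparp and Nqo1 held 1 each. Ahr and Cyp1a2 held none in this window, which says only that these letters were not there. The sequences of Ahrr, Tiparp and Cyp1b1 are shown because Ahrr and Tiparp restrain the receptor and the arrays of Cyp1b1 at the higher doses did not overlap vehicle, and they run 5′ to 3′ on the strand of the gene with each match in capitals. In Ahrr (chr1:30821969-30822218, plus strand) the matches began at positions -142, -117 and -57 from the start, in Tiparp (chr2:152063519-152063768, plus strand) at -136, and in Cyp1b1 (chr6:21094315-21094564, plus strand) at -81 and -20. A match is a description of the letters and not a shown binding site.
Ahrr promoter: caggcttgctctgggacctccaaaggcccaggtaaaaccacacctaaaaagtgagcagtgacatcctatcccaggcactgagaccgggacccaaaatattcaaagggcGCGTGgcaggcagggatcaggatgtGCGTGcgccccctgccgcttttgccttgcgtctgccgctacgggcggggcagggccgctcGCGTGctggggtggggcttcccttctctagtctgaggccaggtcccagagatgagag
Tiparp promoter: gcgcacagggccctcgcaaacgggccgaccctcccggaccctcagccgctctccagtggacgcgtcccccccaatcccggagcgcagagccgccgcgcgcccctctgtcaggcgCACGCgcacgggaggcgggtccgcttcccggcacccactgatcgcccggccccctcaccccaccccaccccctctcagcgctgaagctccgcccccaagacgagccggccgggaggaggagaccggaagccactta
Cyp1b1 promoter: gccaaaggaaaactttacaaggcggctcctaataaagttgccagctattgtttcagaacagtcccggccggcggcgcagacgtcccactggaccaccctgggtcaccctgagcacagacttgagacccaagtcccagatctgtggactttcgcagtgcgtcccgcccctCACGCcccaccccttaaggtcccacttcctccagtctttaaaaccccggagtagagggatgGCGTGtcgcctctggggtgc

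The deposited value table gave 1 intensity per probe set and array, which is used here on the log2 scale, and left 11.0% to 11.3% of the probe sets on each array blank. Blanks were rare among bright probe sets, since 2 of 4317 with a mean log2 intensity of 8 or more had 1 (0.0463%), against 5.65% of those between 4 and 8 and 72% of those under 4. Array medians lay within 0.041 of each other. Enterocyte markers were present on every array, with 7 of 9 on the platform, all 7 above the intensity filter, and a summed intensity of 30700 to 44400. Vehicle rat 1 stood apart from the other vehicle rats in markers of the muscle coat. Scored as the mean log2 difference of 12 smooth muscle markers from the vehicle mean, it stood at -0.53 while vehicle rats 2 and 3 stood at 0.25 and 0.28, and its liver marker score was 1.16, against -0.62 and -0.54. Where a printed fold change of a tested gene moved by over 1.5 times without this rat, the value without it is given too.

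Of the 10 probe sets, 7 passed the intensity filter, which left out the 40% of all probe sets with the lowest mean, and they represented 6 genes. Cyp1a2, Aldh3a1 and 1 probe set of Ahr did not pass it and are described by their values. None of the 7 passed the limma test at any dose, where passing, or being called, means an adjusted p no higher than 0.05 after Benjamini-Hochberg adjustment over every probe set in the fit. The background was almost as empty. Of all probe sets 0.0113% were called at 30 mg/kg (2 of 17707), at 100 mg/kg also 0.0113% (2 of 17702), while 0.0226% were called at 200 mg/kg (4 of 17692). Between 200 and 100 mg/kg none of the 7 was called, beside 0.0226% of all (4 of 17691), and over the 3 doses together none was called, beside 0.0453% (8 of 17677). For a trend with dose order none was called, beside 0.00564% (1 of 17726). The unadjusted limma p was 0.05 or less for 3 of the 7 at 30 mg/kg, beside 4.66% of all probe sets, with 2 higher than vehicle (background 1.82%) and 1 lower (2.84%). At 100 mg/kg it was so for 4 of the 7, beside 18.0%, with 3 higher (8.60%) and 1 lower (9.43%). The 200 mg/kg comparison gave 2 of the 7, beside 12.4%, with 0 higher (5.73%) and 2 lower (6.68%). Between 200 and 100 mg/kg it gave 1 of 7, beside 6.06%, with 0 higher (2.71%) and 1 lower (3.35%), which was Cyp1a1 with 1 array at 200 mg/kg. Over the 3 doses it gave 3 of 7, beside 15.6%, and for the trend 1 of 7, beside 18.4%, with 0 of positive slope (9.30%) and 1 of negative slope (9.06%). The 7 probe sets include both of Tiparp, and such counts over a few filtered probe sets are a description only. The median log2 fold change of the 7 was 0.15, 0.60 and 0.28 at 30, 100 and 200 mg/kg, where the median of all probe sets was 0.01 at each dose. Without vehicle rat 1 the median of the 7 was 0.06, 0.19 and 0.11. An unadjusted limma p of up to 0.05 was then reached by 1 higher and 0 lower at 30 mg/kg, 1 and 1 at 100 mg/kg, and 1 and 3 at 200 mg/kg. The matching shares of all probe sets without this rat were not counted. The 3 dose comparisons share the vehicle arrays.

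**Figure D1:**
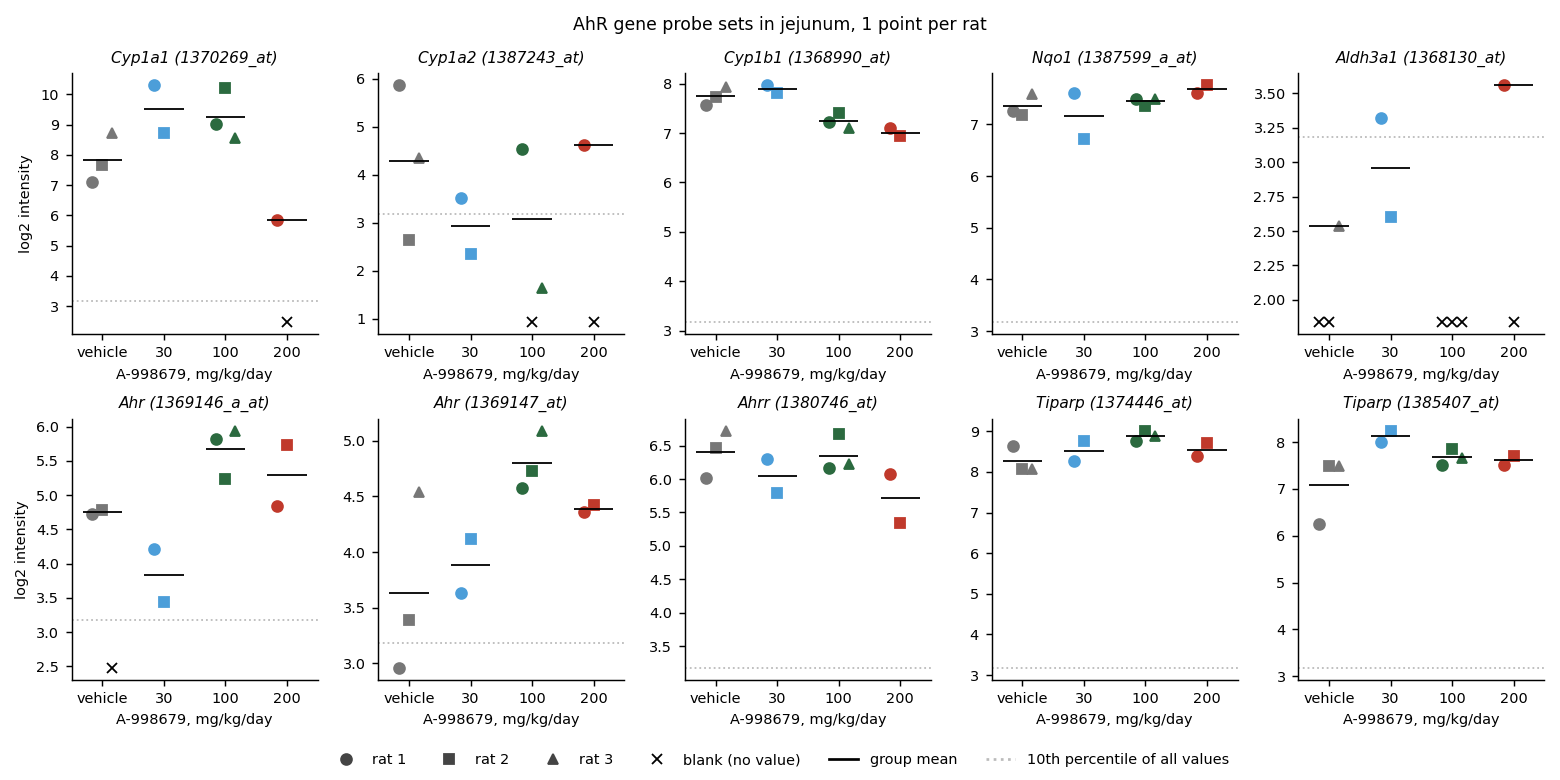
The log2 intensity (y axis, 1 scale per panel) of each of the 10 probe sets is plotted for each rat by dose (x axis, vehicle then 30, 100 and 200 mg/kg/day), with black lines for the mean of the arrays that had a value, crosses for blanks and a dotted line at the 10th percentile of all values, 3.18. Cyp1a1 was brightest in 1 rat each at 30 and 100 mg/kg (10.31 and 10.21) and lowest at 200 mg/kg (5.86 and a blank), and Cyp1b1 lay between 6.93 and 7.40 at 100 and 200 mg/kg, below the vehicle range of 7.56 to 7.94.

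Cyp1a1, the inducible enzyme that oxidises polycyclic aromatic compounds and the usual readout of AhR activity (Entrez gene 24296, chromosome 8), spread more between rats than any other tested gene of the group. Its log2 intensity was 7.09, 7.66 and 8.71 in vehicle rats 1 to 3 and 10.31 and 8.71 in the rats at 30 mg/kg. It was 9.02, 10.21 and 8.57 at 100 mg/kg, and 5.86 in rat 1 at 200 mg/kg, where rat 2 was blank. The highest rats thus belonged to the lower doses, the ranges at 30 and 100 mg/kg overlapped that of vehicle, and the only value at 200 mg/kg lay below every other array. On the linear scale rat 1 at 30 mg/kg and rat 2 at 100 mg/kg had intensities of 1270 and 1190, against 136, 203 and 420 in vehicle rats.

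The fitted Cyp1a1 mean was 9.51 ± 1.13 at 30 mg/kg (SD, n = 2), against 7.82 ± 0.82 in vehicle (SD, n = 3), a fold of 3.22 with a 95% interval of 1.09 to 9.55 (limma adjusted p = 1, unadjusted p = 0.0381). At 100 mg/kg it was 9.27 ± 0.85 (SD, n = 3), a fold of 2.72 with an interval of 1.03 to 7.2 (limma adjusted p = 0.269, unadjusted p = 0.0449). Single rats weighed heavily on these differences. The log2 fold change at 30 mg/kg, 1.69, was 0.89 without rat 1 of that dose and 2.49 without rat 2, and that at 100 mg/kg, 1.44, was 0.97 without rat 2 of that dose and 1.89 without vehicle rat 3. Without vehicle rat 1 the log2 fold changes were 1.32 and 1.08 at 30 and 100 mg/kg, and the smooth muscle score as a covariate made the difference at 100 mg/kg 3.11 (limma adjusted p = 0.385).

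At 200 mg/kg the Cyp1a1 comparison rests on 1 array with a value, which the fit takes to vary like the other groups. Its log2 fold change was -1.96 with an SE of 0.85 (limma adjusted p = 0.409), from an intensity of 58.2 in rat 1. Set at the 10th percentile of all values, the blank of rat 2 made the log2 fold change -3.30 with an SE of 0.87 (limma adjusted p = 0.228). With the smooth muscle score as a covariate and the blank missing it was -1.05 (limma adjusted p = 0.746). Cyp1a1, with a mean of 8.46 over the arrays that had a value, was 1 of the 2 bright probe sets with a blank, and the sources used here do not say what a blank stands for. Against 100 mg/kg the log2 difference at 200 mg/kg was -3.40 with an SE of 0.85 (limma adjusted p = 0.433, unadjusted p = 0.00436), and -4.75 with the blank at the floor (limma adjusted p = 0.191). The order of the group means did not follow dose, and the slope per dose step was -0.09 with an SE of 0.42 (limma adjusted p = 0.923), and -0.35 without vehicle rat 1.

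**Figure D2:**
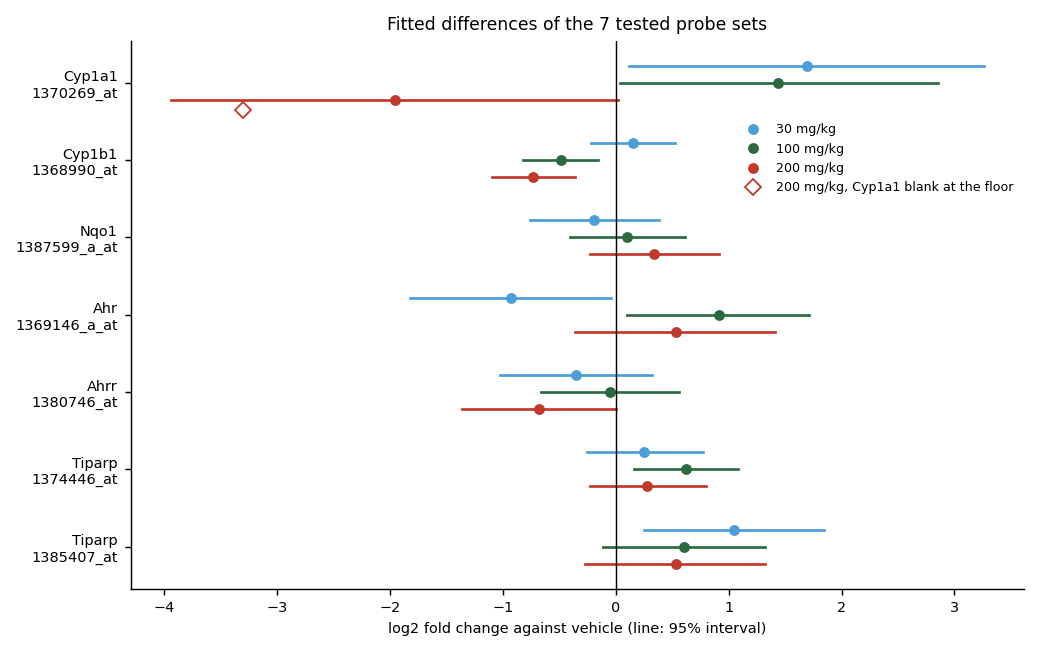
Fitted log2 fold changes against vehicle (x axis, points) with 95% intervals (lines) are shown for the 7 tested probe sets (y axis) at 30, 100 and 200 mg/kg, and the open diamond marks Cyp1a1 at 200 mg/kg with its blank at the floor (-3.30). The intervals of Cyp1a1 were the widest, and Cyp1b1 had the narrow intervals that lay wholly below 0 at the higher doses, from -0.82 to -0.16 at 100 mg/kg and from -1.10 to -0.36 at 200 mg/kg.

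Cyp1a2, the sister enzyme that in rats is expressed chiefly in liver, was dim and scattered in jejunum (Entrez gene 24297, chromosome 8). Its log2 intensity was 5.87, 2.63 and 4.34 in vehicle rats and 3.52 and 2.34 at 30 mg/kg. It was 4.54 and 1.63 in rats 1 and 3 at 100 mg/kg with rat 2 blank, and 4.61 in rat 1 at 200 mg/kg with rat 2 blank. The values at each dose overlapped those of vehicle, 3 of the 8 values lay below the 10th percentile of all values, and no dose could be told from vehicle at this brightness. Both rats without a Cyp1a2 value were rats labelled 2, 1 of them the rat at 200 mg/kg that was also blank for Cyp1a1 and the other the rat at 100 mg/kg with the highest Cyp1a1 of its dose. Rat 1 had the highest Cyp1a2 value of each group, at 200 mg/kg the only value. Rat 1 also had the highest liver marker score of each group, 1.16, -0.48, 0.09 and 0.15 from vehicle to 200 mg/kg. The other rats had liver scores of -1.84 to -0.54. A part of liver-type transcripts in the Cyp1a2 values was not tested.

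Cyp1b1, a CYP1 enzyme found in many extrahepatic tissues (Entrez gene 25426, chromosome 6), had lower values at 100 and 200 mg/kg than in vehicle, and not at 30 mg/kg. Its log2 intensity was 7.56, 7.73 and 7.94 in vehicle rats, 7.97 and 7.81 at 30 mg/kg, 7.23, 7.40 and 7.11 in rats given 100 mg/kg, and 7.10 and 6.93 at 200 mg/kg. Every rat at 100 and 200 mg/kg lay below every vehicle rat, and both rats at 200 mg/kg lay below every rat at 100 mg/kg, while the rats at 30 mg/kg overlapped vehicle. At 100 mg/kg the mean was 7.25 ± 0.14, against 7.74 ± 0.19 in vehicle (SD, n = 3 each), a fold of 0.712 with a 95% interval of 0.566 to 0.894 (limma adjusted p = 0.195). At 200 mg/kg it was 7.01 ± 0.12 (SD, n = 2), a fold of 0.604 with an interval of 0.468 to 0.780 (limma adjusted p = 0.194). At 30 mg/kg the log2 fold change was 0.15 with an SE of 0.16 (limma adjusted p = 1), and 0.06 without vehicle rat 1.

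The slope of Cyp1b1 was -0.27 log2 units per dose step with an SE of 0.06 (limma adjusted p = 0.167, unadjusted p = 0.00144). Vehicle rat 1 had the lowest Cyp1b1 of its group. Without vehicle rat 1 the log2 fold change was -0.58 at 100 mg/kg (limma adjusted p = 0.0434) and -0.82 at 200 mg/kg (limma adjusted p = 0.0478), and the slope was -0.31 (limma adjusted p = 0.0358), so that all 3 passed the threshold. With all arrays weighted by limma's estimate of their quality, the log2 fold change was -0.47 at 100 mg/kg (limma adjusted p = 0.0059) and -0.72 at 200 mg/kg (limma adjusted p = 0.0385). The weight was 8.34 for vehicle rat 2, 0.27 for vehicle rat 1 and 0.41 for vehicle rat 3, so vehicle rat 2 set most of the vehicle mean. The share of all probe sets that passed without vehicle rat 1, or with these weights, was not counted. The shares given above do not apply, so these passes are not shown to be particular to Cyp1b1.

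Markers of the muscle coat, of fibroblasts and of fat were low at the same doses as Cyp1b1. Vehicle rat 1 did not follow this for muscle and fibroblasts. Its scores of -0.53 and -0.44 lay within the range at 100 and 200 mg/kg, while its Cyp1b1 of 7.56 lay above every rat at those doses. All 12 smooth muscle markers had lower fitted means at 100 and at 200 mg/kg than in vehicle, with summed intensities of 13700 to 13900 at 100 mg/kg, 13900 to 18500 at 200 mg/kg and 17700 to 28300 in vehicle, none of the 12 was blank, and none was called. Of the 6 fibroblast markers, 5 at 100 mg/kg and all 6 at the highest dose had lower fitted means than in vehicle. Their summed intensities were 4740 to 5440 at 100 mg/kg, 3690 to 3870 at 200 mg/kg and 4980 to 8800 in vehicle, and none of the 6 was called. Adipose markers were low too, with lower fitted means for all 3 tested at both doses, none called, scores of -1.89 to -0.76 at 100 mg/kg, -0.80 and -0.35 at 200 mg/kg and -0.29 to 0.44 in vehicle, and summed intensities of 29.2 to 110, 116 and 141, and 168 to 366 in these groups. Of the 4 adipose markers on the array Lep and Plin1 were blank on some arrays. In bulk tissue, fewer cells of a type and less RNA per cell cannot be told apart. With the smooth muscle score of each array as a covariate, the Cyp1b1 log2 fold change was -0.14 at 100 mg/kg (limma adjusted p = 0.921) and -0.48 at 200 mg/kg (limma adjusted p = 0.413). Enterocyte scores ran from -0.21 to 0.41 over all arrays, and both extremes belonged to rats at 200 mg/kg. The smooth muscle score hardly varied within 100 mg/kg (-0.94 to -0.91) and was low at 200 mg/kg too (-0.50 and -0.84). As a covariate it therefore cannot separate tissue composition from dose, for Cyp1b1 or for any other gene. The part of tissue composition in the Cyp1b1 values was not tested.

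**Figure D3:**
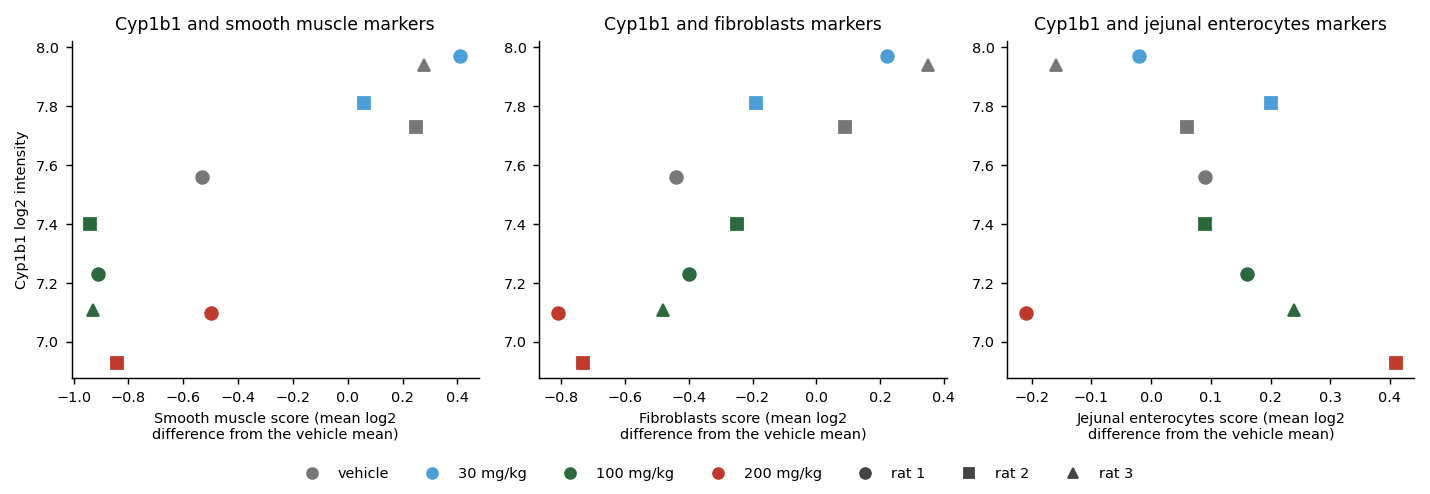
The Cyp1b1 log2 intensity of each rat (y axis) is plotted against 3 marker scores of the same array (x axes, mean log2 difference from the vehicle mean), with colour for dose and shape for rat number. Rats with low Cyp1b1 had low smooth muscle and fibroblast scores, where the 100 mg/kg rats stood at -0.94 to -0.91 for smooth muscle and the 200 mg/kg rats at -0.81 and -0.73 for fibroblasts, while the enterocyte scores showed no such order. Vehicle rat 1 also had low scores, -0.53 for smooth muscle and -0.44 for fibroblasts, with a higher Cyp1b1 of 7.56.

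Nqo1, a quinone reductase that answers both to AhR and to the oxidant sensor NRF2 (Entrez gene 24314, chromosome 19), varied little. Its log2 intensity was 7.26, 7.19 and 7.58 in vehicle rats, 7.61 and 6.71 at 30 mg/kg, 7.49, 7.36 and 7.49 at 100 mg/kg, and 7.60 and 7.76 at 200 mg/kg. Both rats at 200 mg/kg lay above every vehicle rat and every rat at 100 mg/kg, the nearest by a small margin, and of the rats at 30 mg/kg rat 1 lay above and rat 2 below every vehicle rat. Its log2 fold change was 0.34 with an SE of 0.25 at 200 mg/kg (limma adjusted p = 0.587, interval -0.23 to 0.91), 0.10 at 100 mg/kg (0.06 without vehicle rat 1) and -0.19 at 30 mg/kg, where leaving out 1 rat of that dose gave -0.64 or 0.27.

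Aldh3a1, an aldehyde dehydrogenase that AhR ligands induce in rat liver, had a value on 4 of 10 arrays and did not pass the intensity filter (Entrez gene 25375, chromosome 10). Those values were 2.54 in vehicle rat 3, 3.32 and 2.60 at 30 mg/kg, and 3.56 in rat 1 at 200 mg/kg. All 3 rats at 100 mg/kg were blank, as were vehicle rats 1 and 2 and rat 2 at 200 mg/kg. In the fit with no filter its log2 fold change was 0.41 with an SE of 0.47 at 30 mg/kg (limma adjusted p = 0.999) and 1.02 with an SE of 0.55 at 200 mg/kg (limma adjusted p = 0.627), each against 1 vehicle array with a value, and the blanks left no comparison at 100 mg/kg.

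Ahr, the receptor itself (Entrez gene 25690, chromosome 6), was measured by 2 dim probe sets, and both had their highest mean at 100 mg/kg. The brighter of them had log2 intensities of 4.73 and 4.79 in vehicle rats 1 and 2 with rat 3 blank, 4.22 and 3.44 at 30 mg/kg, 5.82, 5.24 and 5.94 at 100 mg/kg, and 4.84 and 5.74 at 200 mg/kg. Every rat at 100 and 200 mg/kg lay above the vehicle rats that had a value, and both rats at 30 mg/kg lay below them. For this probe set the log2 fold change was 0.91 at 100 mg/kg with an SE of 0.35 (limma adjusted p = 0.249), 0.53 at 200 mg/kg (adjusted p = 0.581) and -0.93 at 30 mg/kg (adjusted p = 1). Single rats set the last pair of values, with 0.98 without rat 1 and 0.08 without rat 2 at 200 mg/kg, and -1.32 without rat 1 and -0.54 without rat 2 at 30 mg/kg. With the vehicle blank at the floor the differences at 100, 200 and 30 mg/kg were 1.43, 1.05 and -0.40. With array weights the difference at 100 mg/kg was 0.85 and passed the threshold (limma adjusted p = 0.0191). Its unadjusted limma p was 0.00495, and an adjusted p so close to it arises only where a large part of all probe sets passes. That share was not counted, and the pass is not shown to be particular to Ahr.

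The second Ahr probe set, below the intensity filter, read 2.96, 3.39 and 4.54 in vehicle rats, 3.63 and 4.12 at 30 mg/kg, 4.58, 4.73 and 5.09 at 100 mg/kg, and 4.36 and 4.42 at 200 mg/kg. Every rat at 100 mg/kg lay above every vehicle rat, the other doses overlapped vehicle, and both rats at 200 mg/kg lay below every rat at 100 mg/kg. In the fit of all probe sets with no filter its log2 fold change at 100 mg/kg was 1.16 with an SE of 0.39 (limma adjusted p = 0.318). Macrophage markers, which stand for a cell type known to express Ahr, were also highest at 100 mg/kg, with a higher fitted mean than in vehicle for all 4 tested markers. Their scores were 0.61 to 1.18 at 100 mg/kg, against -0.24 to 0.32 in vehicle, their summed intensities were 1030 to 1340, against 514 to 688, and Cd68 was blank on some arrays. The part of these cells in the Ahr values was not tested.

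Ahrr, which competes with AhR for ARNT and is itself an AhR target, had no positive fitted difference at any dose (Entrez gene 498999, chromosome 1). Its log2 intensity was 6.02, 6.46 and 6.72 in vehicle rats, 6.30 and 5.79 at 30 mg/kg, 6.16, 6.67 and 6.22 at 100 mg/kg, and 6.08 and 5.35 at 200 mg/kg. The rats at each dose overlapped vehicle, and both rats at 200 mg/kg lay below every rat at 100 mg/kg. Its log2 fold change was -0.68 with an SE of 0.30 at 200 mg/kg (limma adjusted p = 0.400), -0.05 at 100 mg/kg and -0.35 at 30 mg/kg. The value at 200 mg/kg was -1.05 without rat 1 of that dose, -0.32 without rat 2, and -0.05 with the smooth muscle score as a covariate (limma adjusted p = 0.973). The value at 30 mg/kg was -0.61 without rat 1 of that dose, -0.10 without rat 2, -0.54 without vehicle rat 1 and -0.20 without vehicle rat 3. The value at 100 mg/kg had no stable sign, with -0.24 without vehicle rat 1, and it was 0.82 with the smooth muscle score as a covariate (limma adjusted p = 0.561). In a description over the 10 arrays, with blanks at the floor, Ahrr had the highest Pearson r with Cyp1a1 among the tested probe sets of the group, 0.728, followed by Cyp1b1 with 0.602. The blank of Cyp1a1 was in rat 2 at 200 mg/kg, which also had the lowest Ahrr (5.35) and the lowest Cyp1b1 (6.93). Both r values therefore lean on a value that was not measured, and r without this rat was not computed.

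Tiparp, a mono-ADP-ribosyltransferase that AhR induces and that promotes its breakdown (Entrez gene 310467, chromosome 2), was measured by 2 probe sets that ran differently over the arrays, with a Pearson r of 0.109 between them. The brighter one read 8.63, 8.08 and 8.08 in vehicle rats, 8.28 and 8.75 at 30 mg/kg, 8.76, 9.01 and 8.89 at 100 mg/kg, and 8.38 and 8.71 at 200 mg/kg. Every rat at 100 mg/kg lay above every vehicle rat and above both rats at 200 mg/kg, and the other doses overlapped vehicle. At 100 mg/kg the mean was 8.88 ± 0.13, against 8.26 ± 0.32 in vehicle (SD, n = 3 each), a fold of 1.54 with a 95% interval of 1.12 to 2.12 (limma adjusted p = 0.212). The log2 fold change, 0.62, was 0.81 without vehicle rat 1 (limma adjusted p = 0.0346) and 0.80 with array weights (limma adjusted p = 0.00268). The share of all probe sets called without this rat, or with these weights, was not counted. The shares given above do not apply, so these passes are not shown to be particular to Tiparp. With the smooth muscle score as a covariate the log2 fold change was -0.12 (limma adjusted p = 0.93).

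The other Tiparp probe set read 6.25, 7.49 and 7.50 in vehicle rats, 8.01 and 8.24 at 30 mg/kg, 7.52, 7.86 and 7.67 at 100 mg/kg, and 7.52 and 7.70 at 200 mg/kg. Every dosed rat lay above every vehicle rat, but rat 1 at 100 and at 200 mg/kg (7.52 each) barely passed vehicle rat 3 (7.50). The highest values were at 30 mg/kg, and vehicle rat 1 was far below the other vehicle rats. Against vehicle the log2 fold change was 1.05 with an SE of 0.35 at 30 mg/kg (limma adjusted p = 1, unadjusted p = 0.0156), 0.60 at 100 mg/kg and 0.53 at 200 mg/kg (limma adjusted p = 0.328 and 0.546). Without vehicle rat 1 these values were 0.63, 0.19 and 0.11, and with the smooth muscle score as a covariate 0.79, 1.61 and 1.26 (limma adjusted p = 0.553, 0.25 and 0.268). The probe sets shared a positive difference from vehicle at all 3 doses in the fit but not the dose at which it was largest.

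Across the tested probe sets without blanks in the arrays compared, the groups were compared for overlap, which is a description of few probe sets. At 30 mg/kg, 1 of 6 was higher than vehicle in every array and 0 were lower, beside 7.39% and 9.37% of all probe sets. At 100 mg/kg, 2 of 6 were higher and 1 was lower, beside 11.5% and 13.5%, and at 200 mg/kg, 2 of 5 were higher and 1 was lower, beside 12.4% and 13.1%. Between 200 and 100 mg/kg, 1 of 6 was higher and 3 were lower in every array at 200 mg/kg, beside 14.0% and 12.9%. The last 3 were Ahrr, Cyp1b1 and the brighter Tiparp probe set. The 2 that were higher at 100 mg/kg were both probe sets of Tiparp, the dimmer by a small margin.

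The genes closest to Cyp1a1, Tiparp and Cyp1b1 over the arrays were taken by Pearson r over all 10 arrays with blanks at the floor, as a description of arrays that share their rats and scaling. Closest to Cyp1a1 were Lamc1, which encodes a laminin chain (r = 0.952), Fbn1, fibrillin (0.910), Emilin1, an elastic fibre protein (0.903), Zfp36l1, an mRNA decay factor (0.900), and Rnf144a, a ubiquitin ligase (0.898). All 5 were lowest in rat 2 at 200 mg/kg, the rat whose Cyp1a1 was blank and entered at the floor. Lamc1, for example, read 7.94 and 7.81 at 200 mg/kg, against 8.17, 8.22 and 8.38 in vehicle rats, a far smaller range than that of Cyp1a1.

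Closest to the brighter Tiparp probe set were Rb1, the retinoblastoma protein and an AhR partner (0.978), Rapgef2, a Rap exchange factor (0.977), the receptors Tnfrsf12a (0.972) and Tnfrsf21 (0.968), and Cby1, a beta-catenin antagonist (0.966). Closest to Cyp1b1 were Tshz2, a zinc finger homeobox factor (0.980), Sun2, a nuclear envelope protein (0.978), Fn1, fibronectin (0.975), Cald1, caldesmon of smooth muscle (0.971), and Foxf1, a transcription factor of gut mesenchyme (0.971). Cyp1b1 also ran opposite to the brighter Ahr probe set over the arrays, with r = -0.839 and the Ahr blank of vehicle rat 3 at the floor. These 2 had the largest correlation in size between Cyp1a1, Cyp1b1 or the brighter Tiparp probe set and any other tested probe set of the group. The second Ahr probe set, below the intensity filter, was not compared.

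**Figure D4:**
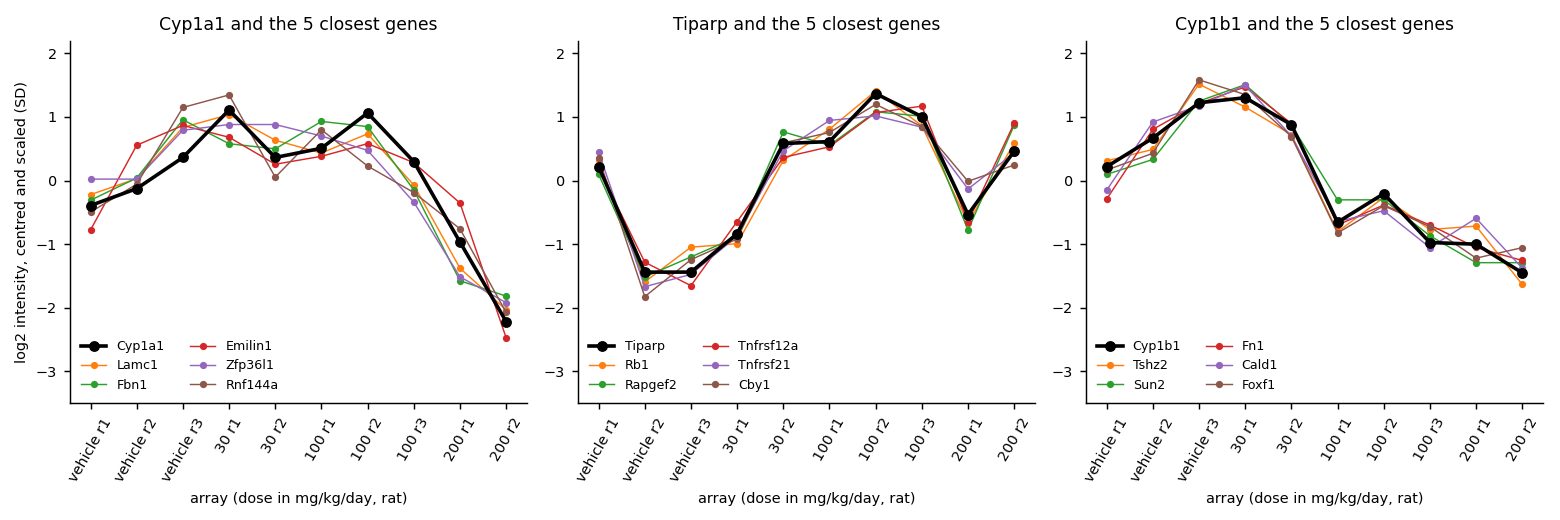
Each panel shows 1 gene (thick black line) and the 5 named genes closest to it by Pearson r, as log2 intensity centred and scaled to its SD (y axis), over the 10 arrays ordered by dose (x axis, r for rat). The Cyp1a1 set was lowest at 200 mg/kg rat 2, the Tiparp set was lowest in vehicle rats 2 and 3, and the Cyp1b1 set was lower in all rats at 100 and 200 mg/kg than in those at 30 mg/kg.

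Around these genes, lists of pathway members were described by their counts, each gene by its brightest probe set, and no gene of any of these lists was called at any dose. Hmox1 stands in both the NRF2 and the heme list. Of 18 receptor partners, chaperones and coactivators, 15 were on the array and 13 were tested. Their median log2 fold change was -0.02, 0.01 and -0.04 at 30, 100 and 200 mg/kg, where that of all probe sets was 0.01. At an unadjusted limma p of up to 0.05, 3 of the 13 were higher at 100 mg/kg and none at the other doses, beside 8.60% of all probe sets at 100 mg/kg. They were Ncoa7, a nuclear receptor coactivator (log2 fold change 0.61, adjusted p = 0.157), the acetyltransferase Crebbp (0.38, adjusted p = 0.241) and Rb1 (0.33, adjusted p = 0.271). At 200 mg/kg the ARNT paralog Arnt2 had a value of 0.47 (adjusted p = 0.422), Ncoa7 of 0.38 (adjusted p = 0.419) and the factor Sp1 of -0.23 (adjusted p = 0.485). At 30 mg/kg the smallest p-values belonged to the coactivators Ncoa3 (-0.32, and -0.15 without vehicle rat 1) and Ncoa1 (-0.17) and to Relb, an NF-kappaB subunit that can pair with AhR (0.21), each with an adjusted p of 1.

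Of 36 other AhR-responsive genes, 28 were on the array and 24 were tested, with medians of -0.06, 0.19 and 0.06 at 30, 100 and 200 mg/kg. At 100 mg/kg 3 were higher and 1 was lower at an unadjusted p of up to 0.05, beside 8.60% and 9.43% of all probe sets. The lower one was Gsta1, a glutathione transferase, whose log2 intensity was 6.73, 5.85 and 6.06 at 100 mg/kg, against 7.37, 7.27 and 7.75 in vehicle rats, with no overlap. Its log2 fold change was -1.25 with an SE of 0.23 at 100 mg/kg (limma adjusted p = 0.121), -0.85 at 200 mg/kg (adjusted p = 0.279) and -0.06 at 30 mg/kg (-0.11 without vehicle rat 1). Its close paralogs can share probes, so that which Gsta transcript was read is uncertain. The higher ones included Plau, the urokinase protease (0.93, adjusted p = 0.201), and Il1b, an inflammatory cytokine made by macrophages (0.68, adjusted p = 0.181). Also higher was Scin, the actin-severing protein scinderin (0.68, adjusted p = 0.229), which was named after its value was seen. Macrophage markers were highest at the same dose, and a part of these cells in the Il1b value was not tested. At 200 mg/kg Plau had a value of 0.64 (adjusted p = 0.452, and 0.96 without vehicle rat 1) and the cell cycle inhibitor Cdkn1b of -0.29 (adjusted p = 0.400), and the 2 of 24 lower at an unadjusted p of up to 0.05, beside 6.68% of all probe sets, were Gsta1 and Cdkn1b. At 30 mg/kg the methyltransferase Inmt had -0.66, the glutathione transferase Gstp1 -0.32 and Myc, a growth factor-responsive transcription factor, -0.46, each with an adjusted p of 1.

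Of 29 oxidant defence genes driven by NRF2, the sensor pathway that shares Nqo1 with AhR, 25 were on the array and 23 were tested, with medians of -0.06, 0.16 and 0.09 at 30, 100 and 200 mg/kg. At an unadjusted p of up to 0.05, 4 were higher and 1 was lower at 100 mg/kg, beside 8.60% and 9.43% of all probe sets, and 3 were higher and none lower at 200 mg/kg, beside 5.73% and 6.68%. Srxn1, the sulfiredoxin that repairs peroxiredoxins, read 7.80, 8.22 and 8.39 at 100 mg/kg and 7.94 and 8.37 at 200 mg/kg, against 7.04, 6.46 and 7.14 in vehicle rats. Every rat at these doses lay above every vehicle rat. Its log2 fold change was 1.25 at 100 mg/kg with an SE of 0.28 (limma adjusted p = 0.143) and 1.28 at 200 mg/kg with an SE of 0.31 (limma adjusted p = 0.222). Gclm, a subunit of the enzyme for glutathione synthesis, had 0.70 at 100 mg/kg (adjusted p = 0.206), and Me1, the NADPH-making malic enzyme, had 0.50 at 100 mg/kg (adjusted p = 0.239) but -0.11 at 200 mg/kg. Also counted at 100 mg/kg, and named after their values were seen, were the aldose reductase relative Akr1b8 with 0.54 (adjusted p = 0.267) and Keap1, the inhibitor of NRF2, with -0.27 (adjusted p = 0.268). At 200 mg/kg Txn1, thioredoxin, had 0.54 (adjusted p = 0.292) and Akr1b8 had 0.60 (adjusted p = 0.395). At 30 mg/kg the values were -0.33 for Keap1, 0.40 for Me1 and -0.25 for Taldo1, transaldolase of the pentose phosphate pathway, each with an adjusted p of 1. Nqo1 itself had smaller fitted log2 fold changes (0.10 and 0.34) than Srxn1 at 100 and 200 mg/kg, a difference that was not tested.

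Of 16 genes for heme supply and electron transfer to P450 enzymes, 14 were on the array and 13 were tested, with medians of -0.12, 0.17 and 0.04 at 30, 100 and 200 mg/kg. At an unadjusted p of up to 0.05, 1 of the 13 was higher at 100 mg/kg, near the 8.60% of all probe sets, and none was at the other doses. It was Cyb5a, the cytochrome b5 that passes electrons to P450 enzymes, with 0.66 at 100 mg/kg (adjusted p = 0.239) and 0.52 at the highest dose (adjusted p = 0.479, and 0.80 without vehicle rat 1). Of the enzymes of heme synthesis, Alad had -0.32 at 100 mg/kg (adjusted p = 0.361), Cpox had 0.35 at 200 mg/kg (adjusted p = 0.436) and Fech had -0.42 at 30 mg/kg (adjusted p = 1). Ppox, another of these enzymes, named after its value was seen, had the highest value of the list at each dose, with an SE near its size (1.25 with an SE of 0.95 at 100 mg/kg, adjusted p = 0.481, and 1.96 without vehicle rat 1). Fdx1, the mitochondrial ferredoxin, had 0.32 at 100 mg/kg (adjusted p = 0.291) and at 200 mg/kg (adjusted p = 0.467). In the 30 mg/kg comparison Hmox2, a heme oxygenase, had -0.28 (-0.08 without vehicle rat 1) and Por, the reductase that feeds electrons to all microsomal P450 enzymes, had 0.40, each with an adjusted p of 1.

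**Figure D5:**
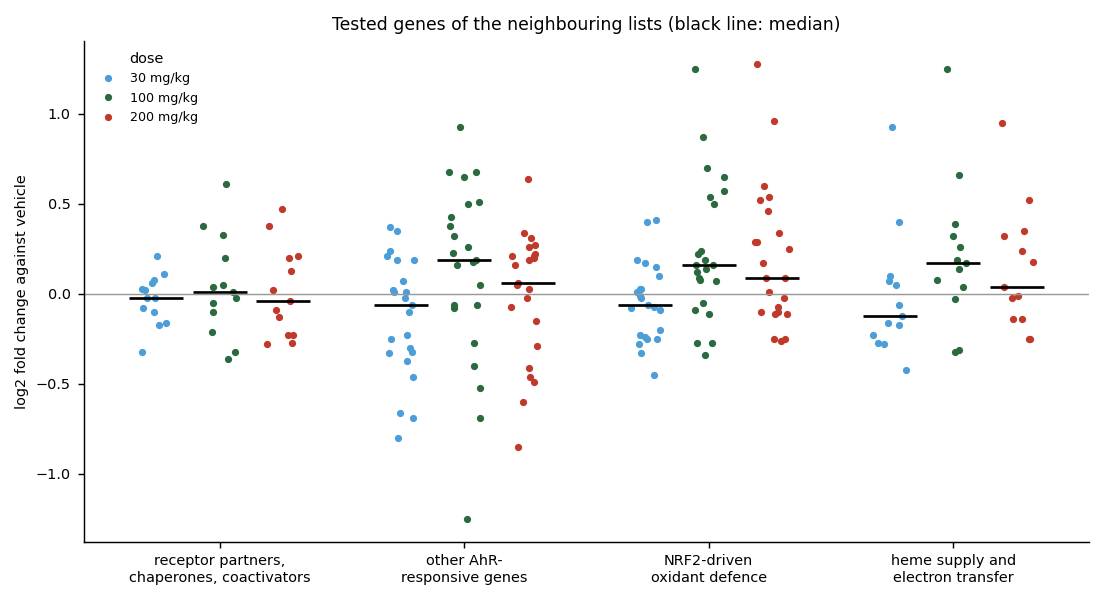
Each point is the fitted log2 fold change against vehicle (y axis) of 1 tested gene of the 4 pathway lists (x axis) at 30, 100 or 200 mg/kg, and the black line is the median of the list. The medians ran from -0.12 to 0.19, and Gsta1 at 100 mg/kg (-1.25) and Srxn1 at 200 mg/kg (1.28) had the lowest and the highest value.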

How the data were processed

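Jejunal RNA of each rat had been hybridised to an Affymetrix rat RAE230 2.0 array. Per the labels and methods, the authors processed the scans with the error model of Rosetta Resolver 7.2. The deposited table gives log10 intensity per probe set and array, from -4.34 to 4.02. Its log base was inferred from this range, and how probes were summarised, background corrected and scaled was not given in the sources used here. A second deposited table holds only the authors' fold changes of single rats and was not used. The design text counts 11 rats, and 10 arrays were analysed here. Arrays have no read depth, and their number limits the precision.

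Values were converted to log2, blanks were left missing, and the lowest 40% of probe sets by mean were left out (11823, lowest mean kept 4.89). Of all probe sets 19952 name 1 gene, 428 several and 9179 none, and only the first kind was named. limma 3.58.1 in R 4.3.3 fitted 1 mean per group to 17736 probe sets (prior SD 0.223, prior degrees of freedom 2.69), with two-sided moderated tests of each dose against vehicle and of 200 against 100 mg/kg, an F test over doses and a slope over dose order, all adjusted by Benjamini-Hochberg over every tested probe set. The scripts were tested on simulated data. Nothing in the labels gives a batch, and rats were different animals. Pathway lists and markers were written from general knowledge. From each pathway list the 3 genes with the smallest p at each dose were named, and the 5 closest genes by Pearson r. The genes described and the lists were chosen with earlier results of these data known. Plots used matplotlib 3.10.9 and tables pandas 2.3.3 under Python 3.11.15. The floor for blanks was the 10th percentile, 3.18 on the log2 scale. Alternatives were other filters, floors, a pseudocount of 16, scalings, array weights, pairwise fits, an ordinary t-test, a replicate block, a smooth muscle covariate and leaving out each array.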

Additional observations from a re-analysis of the deposited data

How the results depend on the processing

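No probe set of the group was called under any filter, floor, pseudocount or scaling tried, or in fits of only the groups compared. With array weights, whose estimation did not fully converge, 4 were called at 100 mg/kg, 1 at 200 mg/kg, 4 over the 3 doses and 2 for the trend, and Cyp1a1 at 100 mg/kg was 1.65 (limma adjusted p = 0.0164). Leaving out each array in turn gave 0 to 2 calls at 100 mg/kg, 0 to 1 at 200 mg/kg, 0 to 1 over the 3 doses and 0 to 1 for the trend, and all of these calls came without vehicle rat 1. An ordinary t-test, which the authors' methods name apart from their array analysis, was also run. At an unadjusted p of up to 0.05 it gave 0 of 7, 3 of 7 and 1 of 6 probe sets at 30, 100 and 200 mg/kg. It gave 0 of 6 between 200 and 100 mg/kg, and 0 everywhere after Benjamini-Hochberg adjustment. For the array weights, the arrays left out and the t-test, the matching shares of all probe sets were not counted. The shares given for the main fit do not apply to these counts. With array weights a large part of all probe sets must have passed at 100 mg/kg. Ahr, at an unadjusted limma p of 0.00495, had an adjusted p of 0.0191 there. Of 608 fold changes under the alternatives 11 changed sign, and of 139 slopes 4 did.

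With the smooth muscle covariate Ahrr at 100 mg/kg was 0.82 and the brighter Tiparp probe set had -0.12 and -0.26 at 100 and 200 mg/kg and a slope of -0.02. It also raised Cyp1a1 to 3.11 at 100 mg/kg and the second Tiparp probe set to 1.61 at 100 mg/kg. The score was low at 100 and 200 mg/kg, so these values cannot separate tissue composition from dose. With array weights the Cyp1a1 slope was 0.40. Over arrays left out in turn, Ahr between 200 and 100 mg/kg ran from -0.83 to 0.07, Ahrr at 100 mg/kg from -0.24 to 0.11, Nqo1 at 30 mg/kg from -0.64 to 0.27, the second Tiparp probe set between 200 and 100 mg/kg from -0.17 to 0.01 and its slope from -0.01 to 0.21, and the Cyp1a1 slope from -0.35 to 0.72. The cause of these changes was not tested.

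Over the tested probe sets without blanks, deviations from the group means were correlated between arrays of different groups. The correlations ran from -0.31 to 0.24 in same-numbered arrays (median -0.01, 13 pairs), against -0.29 to 0.31 in others (24 pairs). Deviations within a group sum to 0, so pairs mirror each other and are not independent. They cannot decide whether same-numbered arrays were alike. Liver marker scores and Cyp1a2 were highest in rat 1 of every group. With the replicate block 0 probe sets were called in every comparison, and the second Tiparp probe set between 200 and 100 mg/kg was 0.02, the only change of sign. Cyp1a1 at 200 mg/kg could not be fitted without rat 1 while blanks were missing. With blanks at the floor, an alternative chosen after the data were seen, it ran from -4.64 to -1.96 over arrays left out. The pathway genes without vehicle rat 1 were also an alternative chosen after the data were seen, as differences of means with no test. Groups of 2 or 3 rats limit every comparison, and dim probe sets of Ahr, Cyp1a2 and Aldh3a1 lie where blanks are common.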
